A study of Homo sapiens with 4 samples.

Results

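Cys-GCA-3-1 is the only cysteine tRNA among the 48 tRNA references of a nanopore comparison of HCT116 cells with and without TRMT1L. It was chosen by its summed error in the D loop, which had already been seen to differ between KO and WT. Every difference between KO and WT in this tRNA is therefore given as a description, and no test of it is read as evidence. All of its 75 nucleotides with a canonical tRNA number were kept, of 3621 such positions in the 48 references. Canonical numbers give the same place in the fold the same number in every tRNA, and this tRNA has no position 17, as is true of 34 of the 48 references. The name gives the amino acid, the anticodon and the gene family and copy. A gene of the matching symbol, TRC-GCA3-1, is listed in RefSeq with a length of 72 nucleotides, which leaves out the CCA end at positions 74 to 76 that is added after transcription. RefSeq lists 29 tRNA genes of the TRC-GCA series, and reads from near-identical cysteine tRNAs could fall on this single reference. How the submitters treated such reads is not given in the sources used here.

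HCT116 is an established human colorectal carcinoma line. There were 2 libraries of WT HCT116 cells and 2 of TRMT1L KO HCT116 cells, grown in the same medium with no other treatment named. The labels give neither the knockout allele, the number of KO clones, nor whether a genotype's libraries stem from cultures of their own, so the spread between them may be technical. Purified, deacylated tRNA was joined to adaptors, opened by reverse transcription and sequenced as native RNA by Nano-tRNAseq.

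A tRNA folds into an acceptor stem, a D arm, an anticodon arm, a variable region and a T arm, and the D and T loops meet at the elbow of the molecule. The D loop is named for dihydrouridine, which the DUS enzymes make there, and position 20 can carry acp3U, which DTWD1 makes in human cells. TRMT1 dimethylates the guanosine at position 26, between the D and anticodon stems. TRMT1L is its homologue, to which the series assigns the dimethylguanosine at position 27 of tyrosine tRNA. A tRNA with the GCA anticodon reads the codons of cysteine. In direct RNA sequencing a modified nucleotide can disturb the current, and the base caller then reads a wrong base (mismatch), skips one (deletion) or adds one (insertion). The rate of these errors is an indirect reading: it names no modification, and a nucleotide can disturb the calls of its neighbours.

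Values are error rates in percent as the authors deposited them, and the summed error is mismatch plus deletion plus insertion. Read depth is not stated, so no counting error is given, and differences are KO minus WT in percentage points. Over all 3621 positions the median summed error lay between 24.6% and 25.5% for WT and between 26.3% and 26.4% for KO, a shift of 1.27 points. In the 15 adaptor nucleotides behind Cys-GCA-3-1 the summed error had a mean of 26.98% and 23.2% for WT and of 22.1% and 24.8% for KO, so the genotypes overlapped there. The data hold no messenger RNA or protein of TRMT1L and thus no direct check of the knockout. With 2 libraries against 2, an exact two-sided permutation test of a single value cannot give a p below 0.333.

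Averaged over its 75 positions, Cys-GCA-3-1 had a summed error of 31.7% in either WT library and of 32.3% and 32.5% in the KO libraries. The difference of 0.70 points is close to the shift of 0.84 points in the mean over all 3621 positions. It became -0.57 points when each library was centred on its median. That step takes a shift of medians, 1.27 points, off a difference of means, so nothing is read from the change of sign. Opposite differences at single positions nearly cancelled in such means. Over the 6 positions from 15 to 21 the mean was 49.03% and 47.9% in WT and 49.2% and 47.9% in KO, while the mean absolute difference there was 13.2 points. Across the 67 positions outside 13 to 21, the median absolute difference was 1.18 points and the largest 4.67 points.

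**Figure D1:**
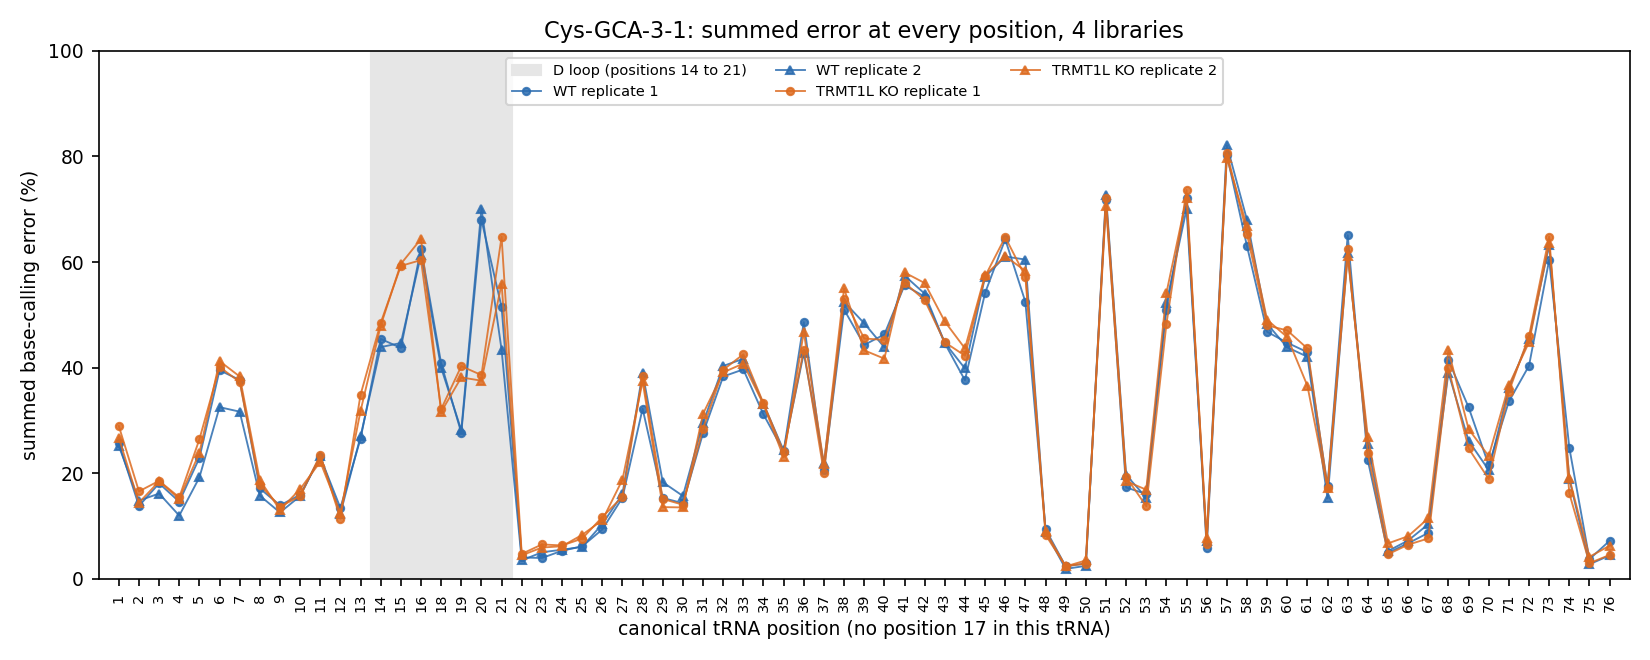
Summed error (%) at the 75 canonical positions of Cys-GCA-3-1, with blue lines for the 2 WT libraries, orange lines for the 2 TRMT1L KO libraries and grey shading over the D loop. The lines part within and beside the D loop, most at position 20, where WT lies at 67.98% and 70.1% and KO at 38.6% and 37.5%. From position 22 to the 3′ end the genotype means differ by at most 4.24 points. Libraries of one genotype can lie further apart there, as at position 74, with 24.8% and 18.9% in WT.

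In WT the highest summed errors lay at positions 57, 51, 55, 20 and 58, with means of 81.2%, 72.2%, 71.1%, 69.05% and 65.5%. Positions 55 and 58 of the T loop commonly carry pseudouridine and 1-methyladenosine. Position 57 stood above the rest, whereas position 51, position 55 and position 20 followed each other within little more than their SDs of 0.772, 1.51 and 1.51 points (n = 2 each). The lowest were position 49 at 2.15%, position 50 at 2.71%, position 75 at 3.26%, position 22 at 3.79% and position 23 at 4.51%. The error along this tRNA thus ran from almost none in parts of the D and T stems to a majority of calls at some positions of both loops. It did not follow stem and loop throughout: position 51, at 72.2%, lies in the T stem, and position 56 of the T loop had 6.59%. In KO, position 20 moved from the 4th to the 32nd place in that order, while position 57, position 55 and position 51 took the first 3 places.

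Position 20 showed the largest difference in the molecule. Its summed error was 67.98% and 70.1% in WT, against 38.6% and 37.5% in KO. The genotypes did not overlap, at 69.05% ± 1.51 in WT and 38.1% ± 0.757 in KO (SD, n = 2 each), a difference of -31.0 points. Mismatches made up most of it: they were 40.1% and 43.1% in WT and 21.4% and 21.3% in KO. Deletions were 24.4% and 21.98% in WT and 11.99% and 11.7% in KO, so both kinds were lower in each KO library than in either WT library. Insertions, at 3.504% and 5.07% in WT and 5.23% and 4.44% in KO, overlapped. Mismatch and deletion shrank together, and their shares changed little. Mismatch was 60.2% of the WT error and 56.1% of the KO error, and deletion was 33.6% and 31.2%. Insertions did not shrink with them, so their share of the error rose. Averaged over positions 19 to 21 the summed difference was -2.26 points, since both neighbours differed in the other direction. The WT error at position 20 was the 7th highest of the 48 references and the KO error the 25th, against medians of the other 47 of 40.7% in WT and 38.3% in KO. The level in KO was thus near the middle of the other tRNAs.

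Position 15, which pairs with position 48 across the fold, went the other way. Its summed error was 43.7% and 44.7% in WT and 59.3% and 59.6% in KO, with no overlap and a difference of 15.2 points. Mismatches were 21.7% and 21.6% in WT and 29.02% and 31.8% in KO. Deletions were 10.8% and 11.6% in WT and 20.0% and 17.2% in KO. Both kinds contributed about equally, by 8.73 and 7.47 points. Insertions were slightly lower in KO, at 11.2% and 11.5% against 10.2% and 10.6%, and no other reference had a higher insertion rate at this position in either genotype. In WT the summed error at position 15 was the 12th highest of the 48 references, and in KO it was the highest. Without KO replicate 1 the deletion difference was 6.09 points and the mismatch difference 10.1 points. With no library left out, the mismatch difference passed the limma threshold only with the replicate number as a block.

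At position 19, next to position 20, mismatch and deletion moved in opposite directions. Position 19 pairs with position 56 of the T loop and is among the most conserved guanosines of tRNA. Its mismatch rate was 13.97% and 15.1% in WT and 32.96% and 31.6% in KO, a rise of 17.8 points. Its deletion rate was 12.8% and 11.7% in WT and 5.93% and 5.67% in KO, a difference of -6.45 points. Neither kind overlapped between genotypes, and mismatches went from 52.05% to 82.3% of all errors at this position. The summed error, at 27.7% and 28.1% in WT and 40.3% and 38.2% in KO, thus understates how far the calls shifted, with a difference of 11.3 points. Insertions stayed at or below 1.40% in all 4 libraries and overlapped. Without KO replicate 1 the summed difference was 10.3 points. With no library left out, it did not pass the threshold with libraries centred on their medians or with the replicate number as a block.

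Position 21, the last of the D loop, showed the same exchange but a wider spread between libraries. Mismatches were 31.7% and 26.5% in WT and 50.3% and 42.9% in KO, 17.5 points apart. Deletions were 17.8% and 15.2% in WT and 11.5% and 10.8% in KO, and no library of one genotype lay within the range of the other for either kind. The summed error was 51.5% and 43.4% in WT and 64.8% and 55.9% in KO. In both genotypes replicate 1 was higher than replicate 2, by more than at any other position from 15 to 27, so the difference of 12.9 points came with SDs of 5.73 and 6.29 points (n = 2 each). The summed difference was 16.9 points without WT replicate 1 and 17.3 points without KO replicate 2. Without WT replicate 2 or without KO replicate 1 it was smaller than 12.9 points. It passed the limma threshold in no fit that kept every library. The mismatch difference was 14.9 points without WT replicate 2. The deletion difference was -4.05 points without WT replicate 1, -5.67 points without KO replicate 1 and -5.04 points without KO replicate 2. It did not pass with untransformed fractions.

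Position 18 pairs with position 55 in the elbow. Its summed error was 40.8% and 39.98% in WT and 32.1% and 31.6% in KO, a difference of -8.52 points with no overlap that did not pass the limma threshold. Mismatches accounted for it, with 35.8% and 34.01% in WT and 26.03% and 25.8% in KO. Deletions here were few and slightly more frequent in KO, at 2.94% and 3.23% against 4.48% and 4.62%. Position 16, often a dihydrouridine in tRNAs, had high errors that overlapped, with 62.5% and 61.4% in WT and 60.4% and 64.4% in KO. Within that sum, deletions were higher in KO, at 4.35% and 4.89% against 7.73% and 7.43%, and insertions were lower, at 5.69% and 6.34% against 5.00% and 4.53%. The difference at position 16 was 0.45 points and became -0.81 points with centred libraries. Averaged with both neighbours, the differences at positions 18, 19 and 21 became 1.09, -9.39 and -5.76 points.

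On the 5′ side, position 13 closes the D stem and position 14 pairs with position 8. The summed error at position 13 was 26.6% and 27.01% in WT and 34.9% and 31.8% in KO, the largest difference outside 15 to 27, at 6.56 points. At position 14 it was 45.4% and 43.9% in WT and 48.5% and 47.97% in KO. Deletions at position 14 were 8.93% and 9.14% in WT and 13.9% and 12.7% in KO, which makes up the difference there, since its mismatches overlapped. Neither position passed the limma threshold. Deletions were thus higher in KO at each position from 13 to 18 and lower at each from 19 to 21, without overlap at any of them.

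**Figure D2:**
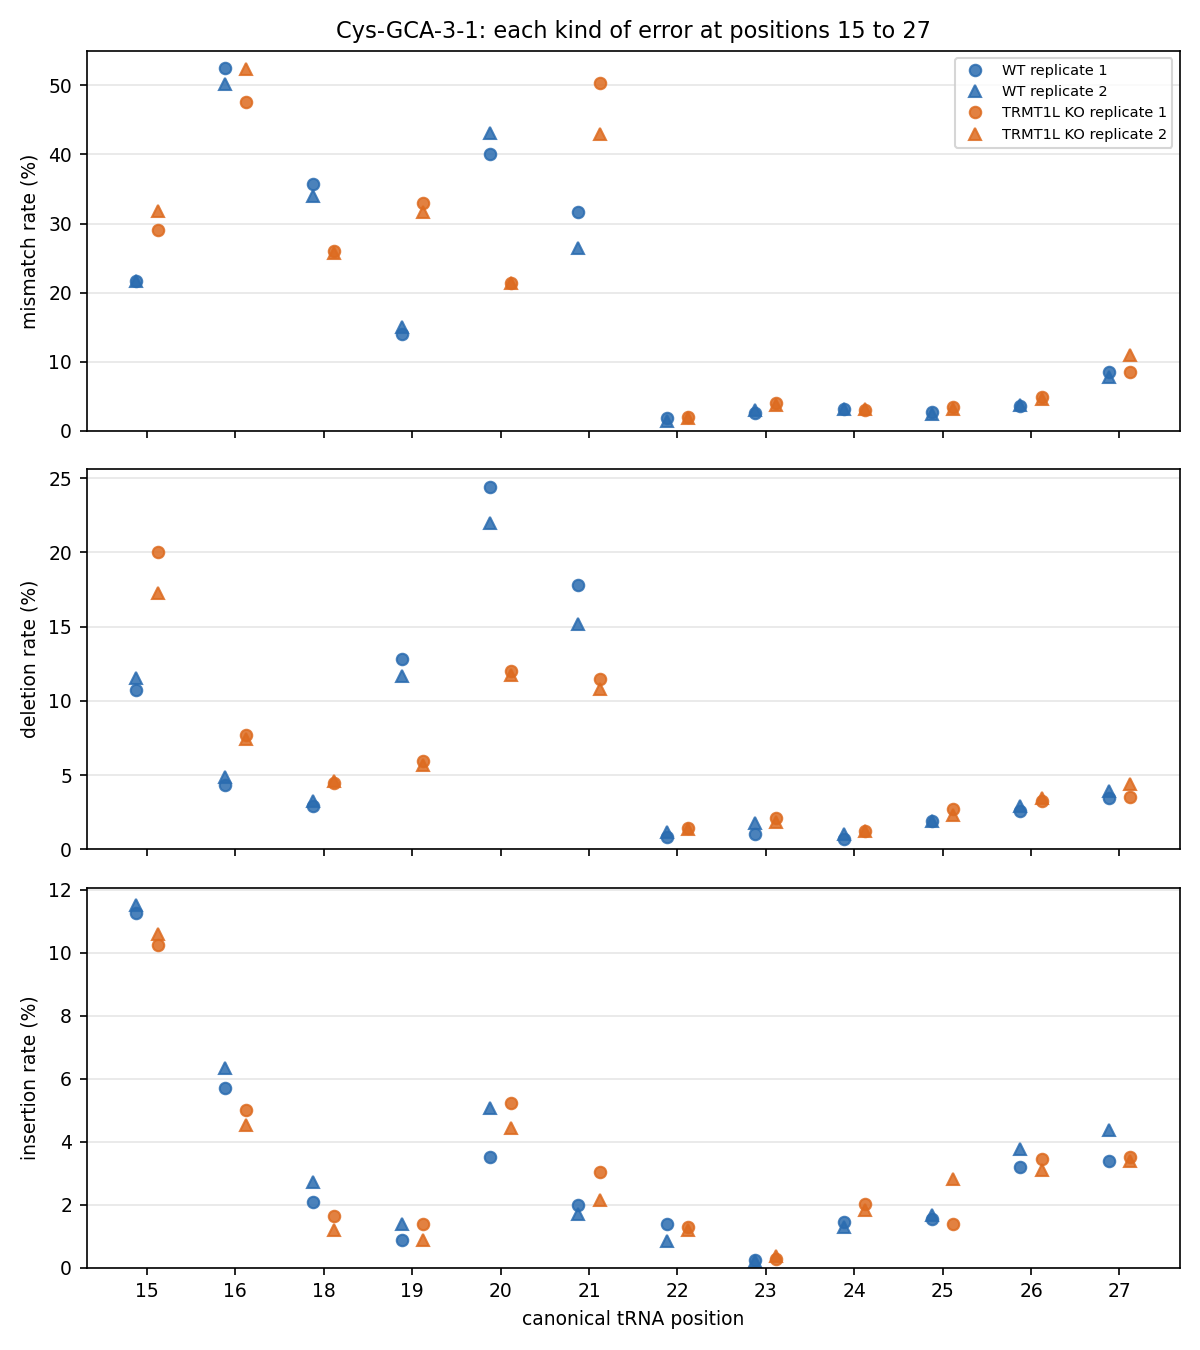
Mismatch, deletion and insertion rates (%) at positions 15 to 27 of Cys-GCA-3-1, each panel on its own scale, with blue points for WT, orange points for TRMT1L KO, circles for replicate 1 and triangles for replicate 2. At positions 19 and 21 mismatches are higher and deletions lower in KO, at position 20 both are lower, at position 15 both are higher, and from position 22 onward the points of both genotypes lie close together.

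Counts past the limma threshold, and passing or failing at single positions, used the contrast by which the tRNA was chosen, so nothing is read from them. For the summed error, 3 of the 75 positions passed, beside 0.608% of all 3621 positions. These were positions 15 and 19, higher in KO beside 0.221% of all, and position 20, lower in KO beside 0.387% of all. For mismatch, 3 passed, beside 0.552% of all positions: 19 and 21, higher in KO beside 0.221% of all, and 20, lower beside 0.331%. For deletion, 4 passed, beside 1.19% of all positions: 15, higher in KO beside 0.58% of all, and 19, 20 and 21, lower beside 0.608%. For insertion, 0 passed in limma, beside 0.0829% of all positions (0.0552% higher and 0.0276% lower in KO), and 4 of the 75, or 5.33%, had an unadjusted p under 0.05, beside 5.69% of all.

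Behind the D loop the error dropped sharply, and the differences between genotypes were small in points. In the 3′ strand of the D stem, positions 22 to 25, the mean summed error was 4.89% and 5.04% in WT and 6.31% and 6.24% in KO. Each of these 4 positions had the lowest WT error of the 48 references: 3.79% at position 22, 4.51% at position 23, 5.44% at position 24 and 6.13% at position 25. The medians of the other 47 references at these positions were 21.98%, 13.04%, 18.1% and 23.9%. All 4 were higher in both KO libraries, by 0.82, 1.73, 0.83 and 1.86 points. The differences at positions 22 and 24 turned to -0.45 and -0.43 points with libraries centred on their medians. Centring takes the median shift of 1.27 points off every difference, whatever the error level of the position. This step between position 21 and position 22, from 47.4% to 3.79% in WT, stands out on the plot of summed error along the molecule.

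Positions 26 and 27, the sites of guanosine methylation by TRMT1 and TRMT1L in other tRNAs, had low errors in this tRNA. The summed error at position 26 was 9.38% and 10.4% in WT and 11.7% and 11.1% in KO, which did not overlap, against a median of 60.9% in WT over the other 47 references. At position 27 it was 15.4% and 16.1% in WT and 15.6% and 18.8% in KO, which overlapped, against a median of 53.995% in WT over the others. Cys-GCA-3-1 ranked 46th and 41st of 48 in WT at these 2 positions. Mismatches at position 26 were 3.57% and 3.70% in WT and 4.98% and 4.55% in KO, and at position 27 they were 8.54% and 7.81% in WT and 8.56% and 10.97% in KO, higher by 1.14 and 1.59 points without overlap, at position 27 by a narrow margin. Deletions at position 26 were 2.60% and 2.91% in WT and 3.28% and 3.46% in KO. The files hold no reference base, so whether a guanosine stands at either position was not examined.

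Along the rest of the molecule the differences were small. Outside positions 15 to 27, both KO libraries lay above both WT libraries in summed error at 15 of 63 positions and below at 3. Over the whole molecule, D loop included, they lay above at 23 of the 75 positions, beside 30.9% of all 3621, and below at 5, beside 7.93% of all. These shares of 30.7% and 6.67%, 37.3% together beside 38.8%, are near the background. Mismatches were higher without overlap at 19 positions and lower at 9, beside 25.4% and 10.9% of all, so that 28 differed in either direction beside 36.3%. Deletions were higher at 30 and lower at 6, beside 35.5% and 7.01% of all, or 36 in either direction beside 42.5%. Insertions were higher at 11 and lower at 15, beside 16% and 17.2% of all, or 26 in either direction beside 33.3%. The shares of each kind were again near those over all positions. From position 28 to the 3′ end, 39 of 49 positions overlapped in summed error. None of the 10 T stem positions and none of the 7 positions of the 3′ acceptor strand separated the genotypes in summed error. By kind, mismatches separated them at positions 65, 66 and 68, deletions at 49, 51 and 62, and insertions at 49, 51 and 64. In the 5′ acceptor strand 5 of 7 positions were higher in KO in summed error without overlap, with a mean difference of 2.70 points. Deletions there were 11.2% and 8.99% in WT and 12.03% and 11.96% in KO. The shares in the same regions of the other references are not given, so these regional counts only describe this tRNA.

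**Figure D3:**
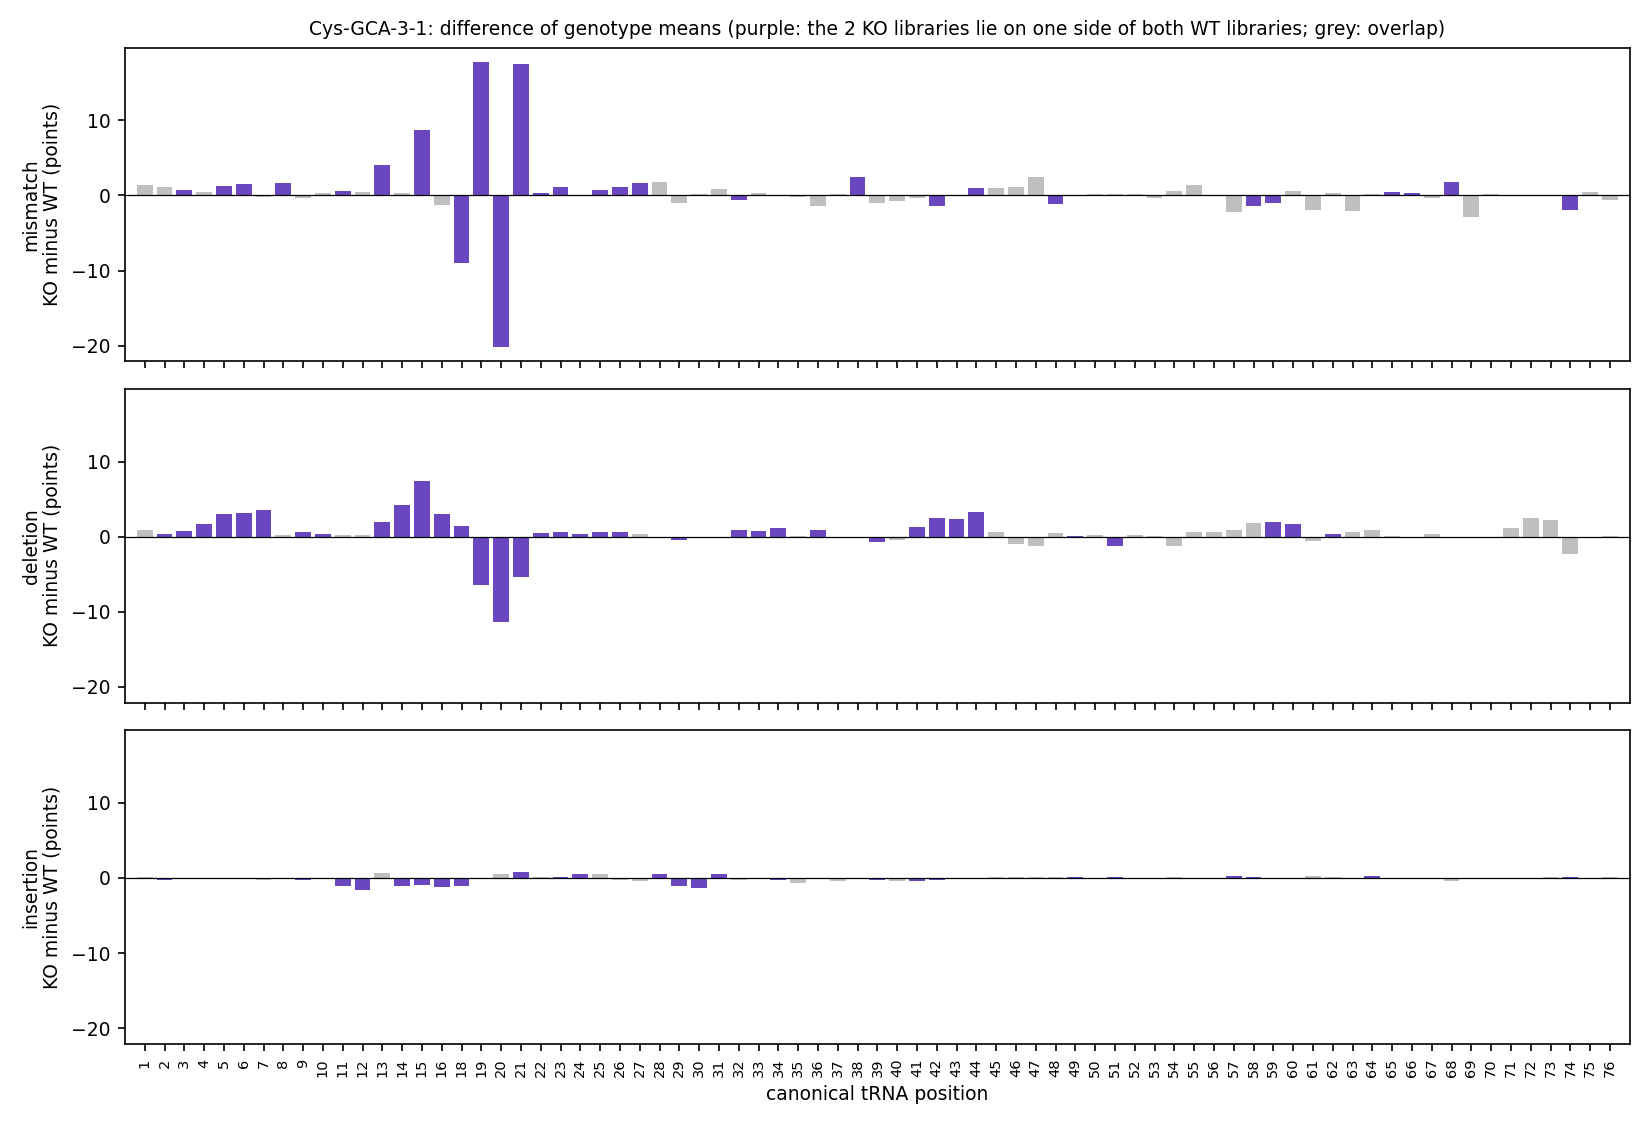
Difference of the genotype means, KO minus WT in percentage points, for mismatch, deletion and insertion at the 75 positions of Cys-GCA-3-1 on one common scale, purple where both KO libraries lie on one side of both WT libraries and grey where they overlap. Mismatch bars reach 17.8 points at position 19 and -20.2 points at position 20, deletion bars 7.47 points at position 15 and -11.3 points at position 20, while no insertion bar exceeds 1.62 points in either direction.

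Outside positions 15 to 27, the largest summed differences without overlap after position 13 were at position 6, at 4.67 points, and position 44, at 4.22 points. Position 44, the usual partner of position 26, had 37.6% and 39.9% in WT and 42.3% and 43.6% in KO, and deletions were higher there by 3.29 points. Position 6 rested on a wide gap between the WT libraries, 39.5% and 32.5%, against 40.1% and 41.2% in KO. Lower in both KO libraries were position 29, by -2.45 points, position 30, by -1.23 points, and position 35 of the anticodon, by -0.71 points. The difference at position 30 came from insertions and turned to 0.15 points without them.

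By kind, mismatches were higher in KO at position 38, by 2.47 points, and position 68, by 1.84 points, and lower at positions 74, 42 and 58, by -1.98, -1.42 and -1.37 points. Deletions were higher at position 7 by 3.59 points, and lower at positions 51, 39 and 29 by -1.17, -0.70 and -0.40 points. Insertions differed least, from -1.62 points at position 12, -1.39 points at position 30 and -1.13 points at position 11 to 0.51 points at position 28, 0.48 points at position 31 and 0.30 points at position 64. None of these passed the limma threshold. Opposite differences of mismatch and deletion without overlap, as at 18, 19 and 21, were also present at positions 24, 32, 42 and 59. Mismatches were lower there by -0.089, -0.56, -1.42 and -0.98 points and deletions higher by 0.36, 0.88, 2.42 and 1.99 points. How often such opposite differences occur over the positions of all references was not counted, so the list only describes this tRNA.

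The other places where tRNAs are commonly modified gave little difference in summed error. In the anticodon loop, the wobble position 34 had a summed error of 31.1% and 33.1% in WT and 33.2% and 33.1% in KO. Position 37, beside the anticodon, had 20.6% and 21.9% in WT and 20.1% and 21.7% in KO. These overlapped, as did position 32, at 38.3% and 40.3% against 39.6% and 39.1%, and position 39, at 44.3% and 48.4% against 45.5% and 43.3%. Position 38 separated the genotypes narrowly, with 50.996% and 52.5% in WT and 53.1% and 54.99% in KO. Position 47 of the variable region can carry dihydrouridine, and position 9 can carry a methylated purine. The summed error of position 47 was 52.5% and 60.5% in WT and 57.2% and 58.3% in KO. Position 9 had 13.9% and 12.6% in WT and 13.7% and 13.1% in KO. In the T arm, positions 49 and 50 stayed at or below 3.51% in every library, while position 54 had 50.97% and 52.2% in WT and 48.2% and 54.1% in KO and position 58 had 63.01% and 67.97% in WT and 65.3% and 66.8% in KO. All of these overlapped in summed error. By kind, deletions were higher and insertions lower in KO without overlap at positions 9 and 34. Deletions differed there by 0.66 and 1.21 points and insertions by -0.22 and -0.25 points. Some kinds also separated the genotypes at positions 32, 38, 39, 49 and 58.

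Among the partners of D-loop positions across the fold, those of 15 and 19 overlapped between genotypes. Position 48, which pairs with 15, had a summed error of 9.42% and 8.93% in WT and 8.35% and 9.04% in KO. Position 56, which pairs with 19, had 5.93% and 7.26% in WT and 6.55% and 7.73% in KO. The differences were -0.48 and 0.55 points. Position 55, the partner of 18, had 72.1% and 69.98% in WT and 73.6% and 72.2% in KO, which separated by a narrow margin. Position 8, the partner of 14, had 17.1% and 15.8% in WT and 17.9% and 18.7% in KO, higher by 1.83 points without overlap. Its mismatches made up most of that, at 1.70 points. Mismatches at position 48 were lower in KO, by -1.10 points, again without overlap.

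At position 20, the difference in Cys-GCA-3-1 was rank 3 from the lowest of the 48 references. The 2 references with lower values were tyrosine tRNAs, Tyr-GTA-2-1 with 81.5% in WT and 33.2% in KO and Tyr-ATA-1-1 with 72.9% and 30.0%. After them came 2 alanine tRNAs, Ala-CGC-2-1 with 49.7% in WT and 23.6% in KO and Ala-TGC-3-1 with 40.7% and 22.4%. The WT libraries of both were far apart, at 44.3% and 55.2% in Ala-CGC-2-1 and 35.4% and 45.98% in Ala-TGC-3-1, while those of Cys-GCA-3-1 were 67.98% and 70.1%. Another alanine tRNA, Ala-AGC-8-2, had 51.01% and 50.2%, and its libraries overlapped. These 5 references share the same 4 libraries, and differences between references were not tested.

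**Figure D4:**
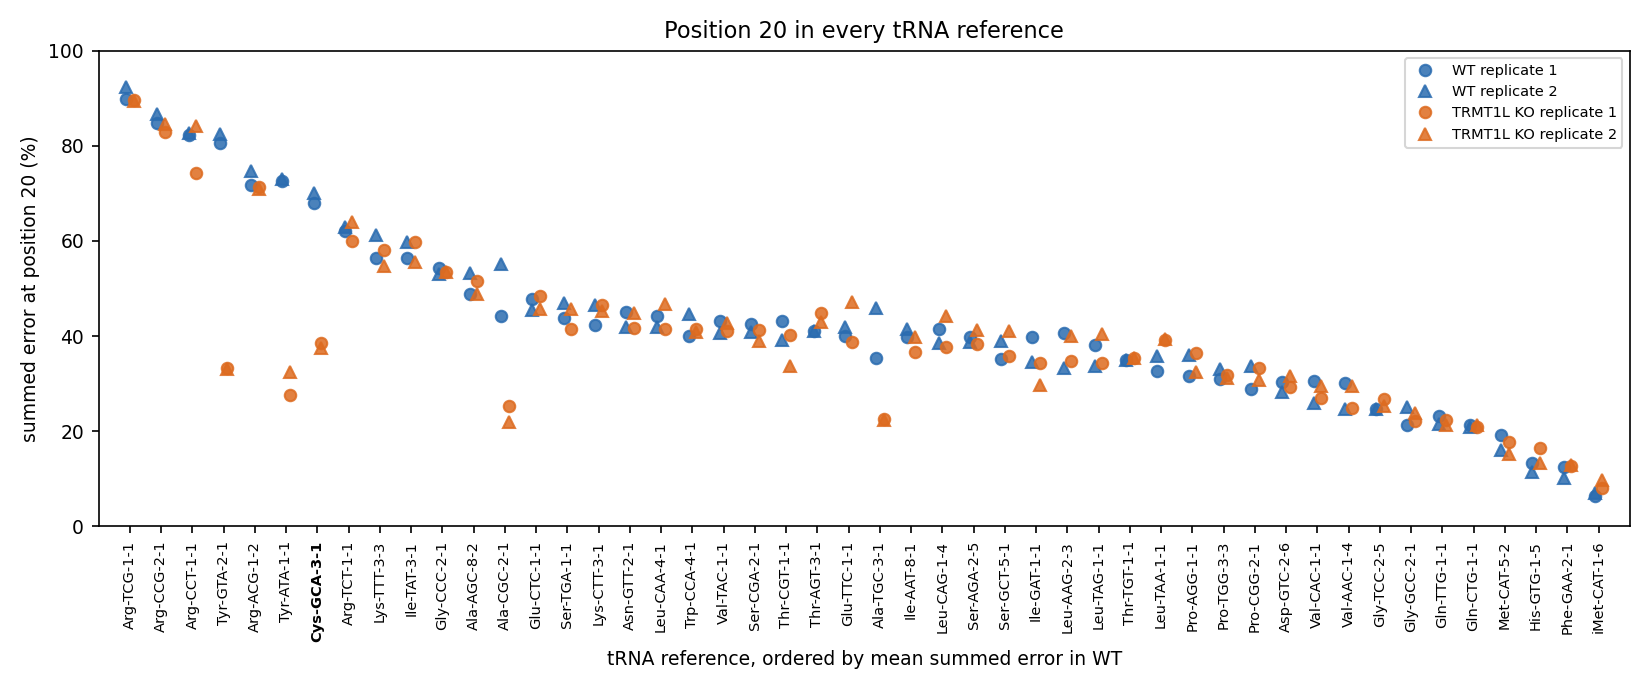
Summed error (%) at position 20 in each of the 48 tRNA references, ordered by the WT mean, with blue points for the 2 WT libraries, orange points for the 2 TRMT1L KO libraries, and the name Cys-GCA-3-1 in bold. Cys-GCA-3-1 stands 7th from the left, and its KO points at 38.6% and 37.5% lie far below its WT points, as they do in 2 tyrosine and 2 alanine references.

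Around position 20 the cysteine tRNA differed from these others mostly in size and at some positions in sign. At position 18 the summed difference was -8.52 points in Cys-GCA-3-1, 0.55 in Ala-AGC-8-2 and between -36.3 and -7.85 in the others. At position 13 it was 6.56 points in Cys-GCA-3-1, -2.63 in Ala-AGC-8-2 and between 2.98 and 7.04 in the others. At position 19 the summed difference was 11.3 points in Cys-GCA-3-1, 4.02 and 5.67 in the GTA and ATA tyrosine references, but -8.41 and -7.03 in the CGC and TGC alanine references. At position 15 it was 15.2 points in Cys-GCA-3-1, -7.17 in Tyr-GTA-2-1 and from -1.16 to 0.79 in the other 4. At position 21 it was 12.9 points in Cys-GCA-3-1 and between -5.76 and 2.04 in the other 5. At positions 15, 19 and 21 Cys-GCA-3-1 had the highest value of all 48 references. The next were 5.03 at position 15, 5.67 at position 19 and 4.73 at position 21. At position 22 the tyrosine references and the first 2 alanine references lay between -10.95 and -7.76 points, while Cys-GCA-3-1 was at 0.82 and Ala-AGC-8-2 at -0.019. By kind, more mismatches with fewer deletions were not confined to Cys-GCA-3-1. At position 19 both occurred without overlap in Tyr-GTA-2-1 (6.39 and -4.80 points), Tyr-ATA-1-1 (10.4 and -5.74) and Ala-AGC-8-2 (1.38 and -0.45). In Ala-CGC-2-1 and Ala-TGC-3-1 both kinds were lower there. At position 21 both occurred in Ala-CGC-2-1 (6.11 and -4.51) and Ala-TGC-3-1 (4.15 and -3.73). There both kinds were lower in Tyr-GTA-2-1 and overlapped in Tyr-ATA-1-1 and Ala-AGC-8-2.

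Deletions at positions 19 and 20 ran in parallel. At position 19 the difference in deletions was -6.45 points in Cys-GCA-3-1, -4.80 and -5.74 in the tyrosine references (GTA, then ATA), and -6.55 and -4.84 in the alanine references (CGC, then TGC), with no overlap in any of them. At position 20 it was -11.3 points in Cys-GCA-3-1, the lowest of the 48, and between -7.91 and -5.38 in those 4. At position 21 the deletion difference of Cys-GCA-3-1, -5.36 points, was again the lowest of the 48, followed by -4.51 in Ala-CGC-2-1. At position 15 its 7.47 points were the highest, against -3.05 to 0.63 in the tyrosine and alanine references named here. Over the 6 positions from 15 to 21, the mean absolute difference in summed error was 13.2 points in Cys-GCA-3-1. Only the tyrosine references had more, with 17.6 (GTA) and 14.3 points (ATA), and the alanine references CGC, with 8.52, TGC, with 6.39, and Ile-GAT-1-1, with 3.72, came next.

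At position 26 of the tyrosine references, deletions were lower and mismatches higher in KO. Deletions there went from 44.6% in WT to 9.56% in KO in the GTA tyrosine reference and from 32.4% to 5.88% in the ATA one, while mismatches went from 15.9% to 68.98% and from 14.3% to 41.1%. The summed error at position 26 was 18.1 points higher in KO in the first and overlapped in the second. In Cys-GCA-3-1 deletions at position 26 were 2.76% in WT and 3.37% in KO, and mismatches 3.63% and 4.77%. At position 27 deletions went from 31.98% to 3.71% in Tyr-GTA-2-1, while in Cys-GCA-3-1 they were 3.67% in WT and 3.97% in KO.

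**Figure D5:**
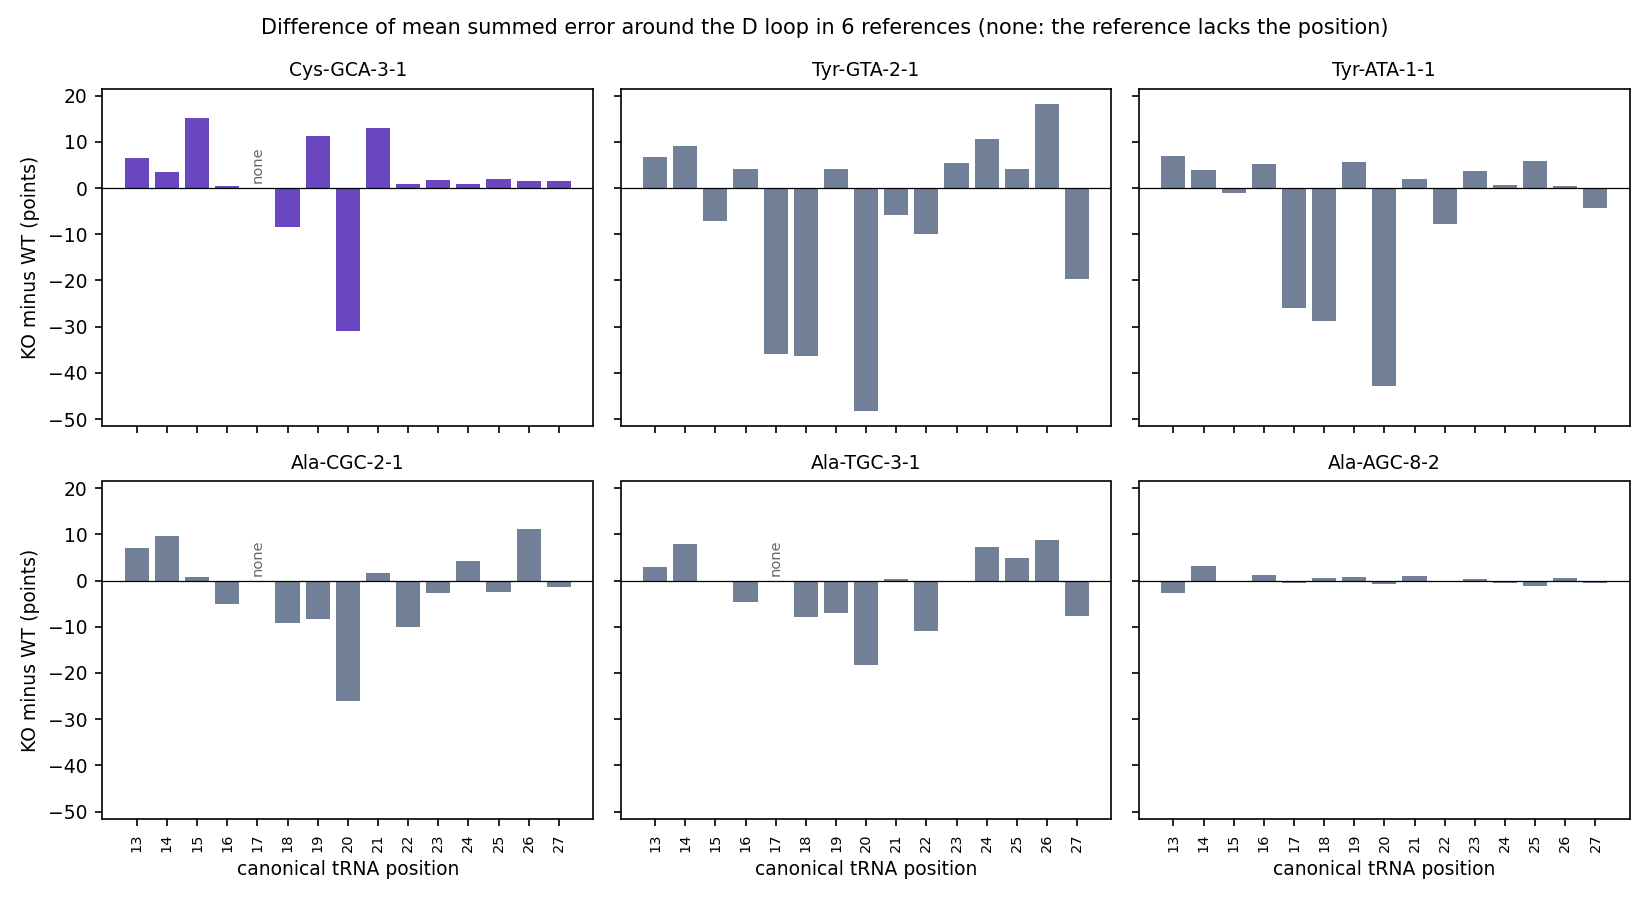
Difference in mean summed error, KO minus WT in percentage points, at positions 13 to 27 in Cys-GCA-3-1 (purple) and in 5 other references (grey), on one common scale, with the word none where a reference lacks a position. Position 20 is below 0 by -18.3 to -48.3 points in all but Ala-AGC-8-2, and only Cys-GCA-3-1 of the 6 is above 10 points at positions 15, 19 and 21.

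Over the whole WT profile of summed error, the references most like Cys-GCA-3-1 were Gly-CCC-2-1, with a Pearson r of 0.604 over 74 shared positions, Pro-CGG-2-1, with 0.533 over 75, and Pro-AGG-1-1, with 0.516 over 75. The median over all 47 other references was 0.387. These are correlations across positions of the same libraries, which share base composition and modified positions, and they serve only to describe. Without positions 15 to 27 the same 3 references were the most alike, with r of 0.610, 0.588 and 0.567. Ala-CGC-2-1, with r = 0.493, and Tyr-GTA-2-1, with r = 0.464, ranked 10th and 12th.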

How the data were processed

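The authors deposited each error rate as a fraction between 0 and 1 (per the file headers), in 12 sheets: mismatch, deletion and insertion for each of 4 libraries. The submitters' processing notes name BWA, SAMtools and bedtools. Tool versions, the base caller, read filters, depth and any genome build were not given in the sources used here. A deletion within a run of identical bases can be placed at any of them. Fractions were turned into percentages, and the 3 kinds were added. Samples were grouped by the genotype in their titles.

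The arcsine square root of each rate was fitted over all 3621 numbered positions with limma 3.58.1 in R 4.3.3 (lmFit, eBayes with trend and robust settings; genotype only), with Benjamini-Hochberg adjustment at 0.05. The fit was tested on simulated data, with noise drawn independently for each library and position. Those data held no shift of a whole library, so nothing is read from that test here. Python 3.11.15 with pandas 2.3.3 and matplotlib 3.10.9 served for the rest.

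Positions named were 15 to 27, commonly modified positions, the 3 largest non-overlapping differences in each direction elsewhere by kind, and the 5 highest and lowest in WT. Positions 13 and 14 at the loop's edge and the partner positions 8, 55 and 56 were added after their values were seen. The tRNA and all lists were chosen with earlier results of these data known. Alternatives changed the scaling, the kinds summed, the test's scale, variance model, filter, pairing and libraries. No reference sequence of this tRNA was used here.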

Additional observations from a re-analysis of the deposited data

How the results depend on the processing

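Each difference was recomputed without each library in turn, with libraries centred on their medians and as a mean with both neighbours. In all, 395 of 460 recomputed differences stayed within their replicate spread, but 292 of these left out a library. With 2 libraries per genotype, leaving out either moves a mean by less than the genotype's SD, so those 292 are no sign of stability. Of the other recomputed differences, 103 stayed, 43 moved further and 22, of differences whose libraries did not overlap, changed sign. None of those 22 came from leaving out a library, which cannot change the sign where the libraries do not overlap, so nothing is read from this. Differences with overlapping libraries changed sign 16 times more, 12 of them without a library, among them the summed error at position 16 (-0.11 without WT replicate 2 and -1.55 without KO replicate 2) and position 27 (-0.15 without KO replicate 2). At position 20 the summed difference of -31.0 points ran from -32.1 to -29.9 without single libraries, was -31.5 without insertions, -32.2 and -29.9 with libraries centred on their tRNA or adaptor medians, -20.2 for mismatch alone, -11.3 for deletion alone and 0.55 for insertion alone. Averaged over positions 19 to 21 it was -2.26. Such averaging joins opposite differences, and it reversed the summed error at positions 18, 19 and 21 (1.09, -9.39 and -5.76), mismatch at 18, 19, 20, 21, 24 and 68 (2.51, -3.80, 5.03, -0.81, 0.57 and -0.45), deletion at 18 and 22 (-0.68 and -1.46) and insertion at 28 and 31 (-0.32 and -0.40). Centring reversed the mean over the molecule (-0.57), the summed error at 22, 24 and, with overlapping libraries, 16 (-0.45, -0.43 and -0.81), mismatch at 22 (-0.16) and deletion at 22, 23 and 24 (-0.15, -0.020 and -0.22), and, with overlapping libraries, deletion at 27 (-0.29) and insertion at 19 (-0.026). For the summed error, centring took off the shift of medians, 1.27 points, where the shift of means over all positions was 0.84 points. Without insertions the summed difference at position 30 was 0.15.

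Calls over all positions depended on single libraries: from 22 they went to between 28 and 66 for the summed error without one library, from 20 to between 14 and 67 for mismatch, from 43 to between 30 and 58 for deletion, and from 3 to between 0 and 6 for insertion. The highest counts of the first 3 kinds came without KO replicate 2. Within Cys-GCA-3-1, 2 to 4 positions passed for each of summed error, mismatch and deletion, with 2 for deletion without KO replicate 1. The labels do not say that replicate numbers pair the libraries, and same-numbered libraries did not deviate together (r = -0.251 over 3621 positions). With the replicate block there were 17 calls for the summed error, 31 for mismatch, 58 for deletion and 0 for insertion, and 2, 4, 4 and 0 of them were in Cys-GCA-3-1. A crossed pairing, chosen after seeing the data, gave 74 calls for the summed error, 4 of them in Cys-GCA-3-1. Of the 3 references most like it, 2 remained with Spearman's rho and 1 with mismatch alone. The cause of these shifts was not tested, and unstated depth limits the precision of every rate.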
